A study of Mus musculus with 48 samples.

Results

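Macrophages and monocytes of hearts infarcted on postnatal day 10 (P10) were compared with those of hearts infarcted on postnatal day 1 (P1), 7 days after surgery in both cases. The comparison used the 12 libraries whose titles name an infarct, day 7 and either age, 6 at P10 and 6 at P1, out of 42 libraries with data among 48 labelled samples. In the series, myocardial infarction (MI) was induced in C57BL/6 pups by tying off a coronary artery, other pups were sham operated, and hearts were taken 3 or 7 days later. Each heart was cut into the infarct zone, IZ, the zone bordering it, BZ, and remote myocardium, RZ. Live cells positive for CD45, the pan-leukocyte antigen, and F4/80, the macrophage antigen, were sorted from tissue of the same zone pooled over several hearts, and the buffers contained sodium butyrate. H3K27ac was profiled with CoBATCH, in which a transposase guided by an antibody tags the marked DNA of single cells. Mice of the P1 group were thus 8 days old and those of the P10 group 17 days old at harvest, and each group held 3 zones with 2 libraries each, numbered 1 and 2. The labels give no sex, and their treatment field reads myocardial infarction for sham samples too, so that the surgery was taken from the titles.

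H3K27ac, acetylation of lysine 27 on histone H3, marks active enhancers and promoters. The infarcted heart holds long-lived resident macrophages, known for Lyve1, the mannose receptor Mrc1, complement C1q and phagocytic receptors, together with cells that arrive from blood as monocytes and mature locally. Mouse hearts injured on the day after birth regenerate muscle, whereas those injured at P10 scar.

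The 12 libraries held 4775341 read pairs, between 73087 and 634784 per library at P1 and between 245173 and 1008924 at P10, and the 3 P1 libraries numbered 2 were the shallowest, with at most 108626. Between 32.4% and 63.9% of a library's pairs lay in H3K27ac regions at P1 and between 35.9% and 51.9% at P10. Averaged over zones, this share was 35.1% and 56.7% in the pools numbered 1 and 2 at P1 and 50.6% and 40.7% at P10. An exact permutation test of 2 pools against 2 cannot give a p below 0.333. The share of pairs on chromosome X was 3.19% and 1.93% in the P1 pools and 2.32% and 2.73% in the P10 pools, and that on chromosome Y 0.000598% and 0.00573% at P1 and 0.00314% and 0.0142% at P10. Pools of the same age thus differed in X and Y signal, the labels used here give no sex, and the part of this in the results was not tested. In the libraries numbered 2, from 14.6% to 29.6% of counted pairs were reads without a mate, and in those numbered 1 none were. The median length spanned by a read pair averaged 255 and 285 bp in the P1 pools and 200 and 273 bp in the P10 pools. It was 240 to 292 bp in the P1 libraries and 197 to 203 bp in the P10 libraries numbered 1. P10 sham libraries of day 7 numbered 1 had 196 to 201 bp. The part of this in the results was not tested. The windows of the genes that define the sorted cells carried signal in every library: Adgre1, which encodes F4/80, ranged from 365 to 428 CPM (read pairs in the window per 1000000 pairs in regions) at P1 and from 304 to 541 at P10, and Spi1, which encodes the lineage factor PU.1, from 870 to 1420 and from 744 to 970. Of the 8 genes of the sorted cells, 1 (Mertk) passed the test between the ages described next, where 6.43% of all windows did, and 0 passed when scaled to all deposited pairs, without P1 IZ replicate 1, P1 BZ replicate 2 or P1 RZ replicate 1, and without either P1 pool or the P10 pool numbered 1. No window of the 9 non-leukocyte genes (heart muscle, endothelial and fibroblast markers) had enough pairs in regions for a test. Summed over all pairs in their windows, these genes held 157 to 479 pairs per 1000000 deposited pairs at P1 and 328 to 457 at P10. Sums over a list are in this unit throughout, not in CPM, and pairs in overlapping windows count more than once.

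H3K27ac differed between the ages at 653 gene windows. A window ran from 50 kb upstream of a gene to 30 kb past its end, its signal was the number of read pairs that fell in regions there, and 10159 of 21938 protein-coding genes had enough pairs for a test. Averaged over the 3 zones, the 653 windows (6.43% of those tested) had an adjusted p under 0.05 by limma voom, with 311 higher at P10 (3.06%) and 342 lower (3.37%). Scaled to all deposited pairs of a library instead of those in regions, 58 windows passed, 34 higher and 24 lower. Counted over all pairs, in regions or not, 127 of 16179 windows passed (0.785%). The median log2 difference was 1.03 in the windows that were higher and -0.98 in those that were lower, against 0.03 over all windows tested. Neighbouring windows share read pairs, and the 653 formed 346 separate stretches. In 648 of the 653, which were called on the mean of the zones, the sign was shared by IZ, BZ and RZ, as it was in 4582 of all windows tested, and the 6 libraries of an age did not overlap with the 6 of the other in 270 of the 653 and in 405 of all windows tested. None of the 653 lay on a sex chromosome, but of all windows tested only 133 lay on X and 0 on Y. Without the P1 pool numbered 2 the count was 338, and without the P10 pool numbered 1 or 2 it was 238 or 309. Reads were pooled over all cells of a library, so that fewer cells of a type and less signal per cell cannot be told apart.

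**Figure D1:**
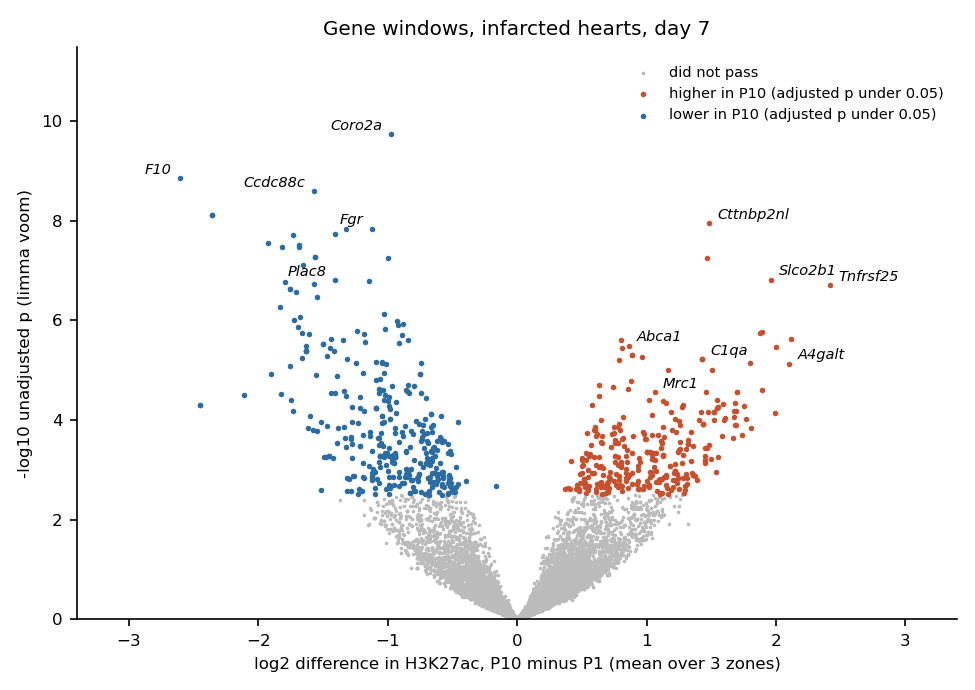
Each point is a gene window (10159 in all), with the log2 difference in H3K27ac between P10 and P1 infarcted hearts at day 7 on the x axis and the -log10 of the unadjusted limma voom p on the y axis. The 311 windows higher at P10 are orange and the 342 lower are blue, and the lower side holds the smallest p-values, led by Coro2a and F10.

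The windows of resident macrophage genes were higher at P10. All 9 genes of this list with enough pairs (Lyve1, C1qa, Mgl2, Fcrls, Cbr2, Folr2, Mrc1, Cd163 and F13a1) passed, with a median log2 difference of 1.13 against 0.03 over all windows, where 3.06% of windows passed in this direction. The tenth, Timd4, had too few pairs. The study used Lyve1, C1qa, Mgl2, Fcrls and Cbr2 to describe resident macrophage clusters in the same series. It reported the cluster high in Cbr2 and Lyve1 as enriched in P10 hearts. The list was chosen with this known, so its count is no independent support. C1qa, which encodes a chain of the complement component C1q, ranged from 67.6 to 489 CPM at P1, with a median of 198, and from 407 to 659 at P10, with a median of 532. A single P1 library, RZ replicate 2, reached into the P10 range, and the fitted log2 difference was 1.43 ± 0.29 (SE, adjusted p = 0.00085 in limma voom). The windows of C1qb and C1qc hold the same pairs in regions as that of C1qa, so the 3 genes of the cluster on chromosome 4 give the same value here. Counted over all pairs they differed, and C1qb passed in limma voom (1.38, adjusted p = 0.036) while C1qc did not (1.29, adjusted p = 0.0502).

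Mrc1, the mannose receptor (chr2:14229392-14332057), ranged from 190 to 357 CPM at P1, with a median of 288, and from 473 to 983 at P10, with a median of 665. The groups did not overlap, and the log2 difference was 1.06 ± 0.24 (adjusted p = 0.0026). Mgl2, a galactose-binding lectin, ranged from 22.5 to 135 CPM at P1 and from 168 to 296 at P10, again without overlap, with a log2 difference of 1.42 ± 0.33. Its window overlaps that of the related lectin Clec10a, which also passed. The P1 libraries of Lyve1, a hyaluronan receptor, spanned 124 to 428 CPM and its P10 libraries 256 to 391, with overlap, and the log2 difference was 0.78 ± 0.25 (adjusted p = 0.039). Folr2, a folate receptor, gave 0.66 ± 0.21 without overlap of the groups, from 206 to 293 CPM at P1 and from 341 to 477 at P10. Counted over all read pairs, the 10 genes summed to 784 to 1406 at P1 and 1542 to 2746 at P10. These sums are scaled to deposited pairs and are not CPM. In the test on all read pairs 2 of the 10 passed, Lyve1 and Mrc1, and C1qa gave 1.25 (adjusted p = 0.055), Folr2 0.56 (adjusted p = 0.26) and Fcrls 0.95 (adjusted p = 0.29). The median difference of the list stayed between 1.05 and 1.24 when each of the 4 pools was left out, but the number of its genes that passed fell to 1 without the P1 pool numbered 1 and to 4 without any other pool. Single libraries moved it as well, to 3 without P1 IZ replicate 1, to 4 without P10 IZ replicate 2, and to 5 without P1 BZ replicate 1, P1 BZ replicate 2, P10 IZ replicate 1 or P10 RZ replicate 1. Without the P1 pool numbered 1, C1qa gave 1.39 (adjusted p = 0.070), Mrc1 1.22 (adjusted p = 0.082) and Lyve1 -0.01 (adjusted p = 0.99). Lyve1 also lost its call without 8 of the 12 single libraries, and Folr2 without 11 of the 12 and without each pool. Under scaling to all deposited pairs 2 of the 9 passed, in limma-trend 5, and with regions at 6 times the mean 4.

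Of the complement and phagocytic receptor genes, 5 of 12 were higher at P10 and 0 lower: the 3 C1q genes, Mertk, a receptor for apoptotic cells, and Stab1, a scavenger receptor, with a list median of 0.31, where 3.06% of all windows passed in this direction. The 3 C1q windows hold the same pairs in regions and are 1 measurement. The count of 5 was 0 without the P1 pool numbered 1, 3 without the P10 pool numbered 1, P1 IZ replicate 1 or P1 RZ replicate 1, 3 when scaled to all deposited pairs, and 2 of 13 with all pairs in the window. Mertk ranged from 221 to 435 CPM at P1 and from 429 to 700 at P10, with a log2 difference of 0.81 ± 0.21 (adjusted p = 0.0094). Stab1 gave 0.50 ± 0.14 (adjusted p = 0.020). The Fc receptor genes Fcgr1 and Fcgr3 gave -0.01 and 0.08, and the complement receptor C5ar1 0.32 (adjusted p = 0.097), and none of these passed. Neither Mertk nor Stab1 passed without the P1 pool numbered 1, where they gave 0.70 and 0.37 (adjusted p = 0.24 and 0.39), or without the P10 pool numbered 1, where they gave 0.82 and 0.43 (adjusted p = 0.068 and 0.20). Mertk also lost its call without the P1 pool numbered 2 (0.74, adjusted p = 0.066) and without P1 IZ replicate 1, P1 BZ replicate 2 or P1 RZ replicate 1, where it gave 0.67 to 0.68. Stab1 lost it without the P10 pool numbered 2 (0.53, adjusted p = 0.054) and without P1 IZ, BZ or RZ replicate 1 or P10 IZ or RZ replicate 1, where it gave 0.39 to 0.58.

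**Figure D2:**
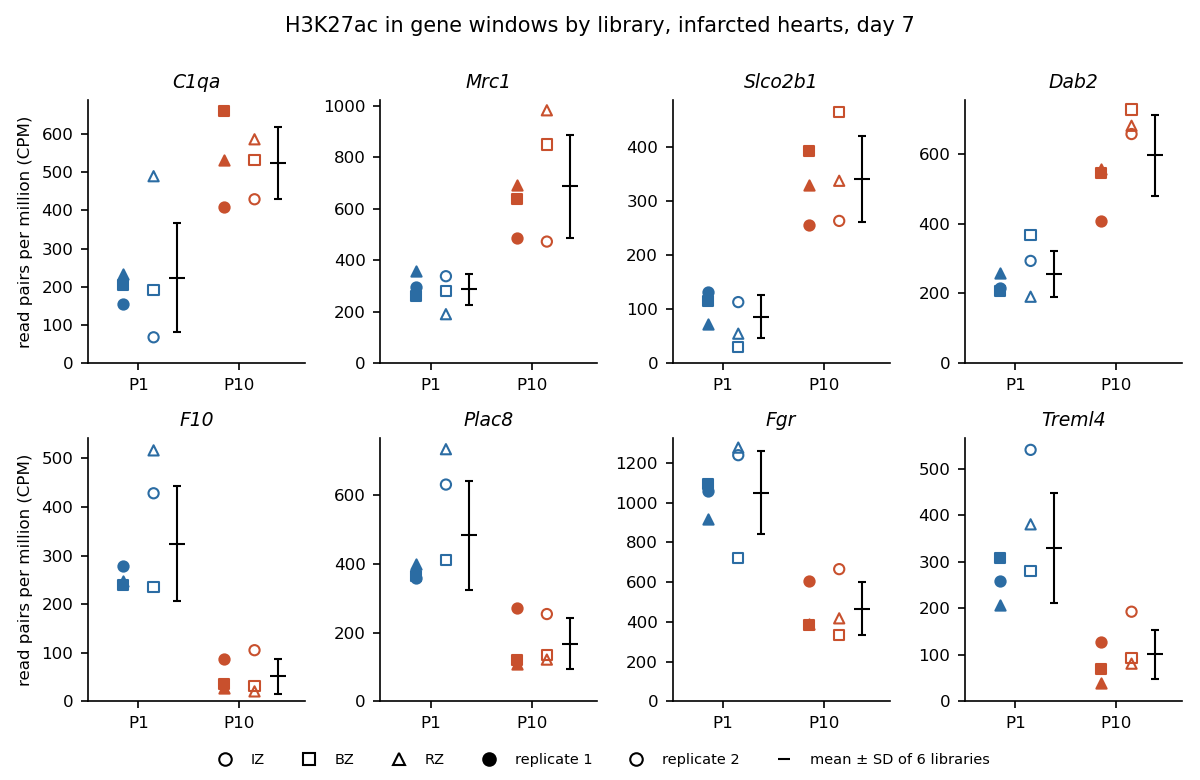
CPM in the windows of 8 genes, with each symbol a library (zone by shape, replicate number by filling) and the mean ± SD of the 6 libraries of an age beside them. C1qa, Mrc1, Slco2b1 and Dab2 are higher at P10 and F10, Plac8, Fgr and Treml4 lower, and only in C1qa do the ages overlap.

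Among growth factor and wound repair genes, 2 of 9 were higher, against 3.06% of all windows, and 1 was whichever of the 4 pools was left out, with sums per pool and in limma-trend. Dab2, an endocytic adaptor, ranged from 190 to 368 CPM at P1, with a median of 238, and from 407 to 727 at P10, with a median of 607. The groups did not overlap, with a log2 difference of 1.17 ± 0.24 (adjusted p = 0.0012), which was 1.00 (adjusted p = 0.16) without the P1 pool numbered 1. Pdgfa, which encodes a platelet-derived growth factor, gave 1.15 ± 0.34 (adjusted p = 0.028), with P1 libraries at 0 to 136 CPM and P10 libraries at 166 to 217, and 0.66 (adjusted p = 0.34) without the P1 pool numbered 2. Pdgfa lost its call without either P10 pool too, and without P1 IZ replicate 2 (0.59), P1 BZ or RZ replicate 1 or P10 IZ or RZ replicate 1. Igf1 (-0.00) and Tgfb1 (-0.07) did not pass. Of 8 lipid handling genes 1 was higher, Abca1, the cholesterol exporter, where 3.06% of all windows were higher, and 0 were without the P1 pool numbered 1 or when scaled to all deposited pairs. The list median was -0.08. It ranged from 342 to 625 CPM at P1 and from 527 to 913 at P10, with a log2 difference of 0.86 ± 0.17 (adjusted p = 0.00059), and 0.52 (adjusted p = 0.27) without the P1 pool numbered 1. Apoe gave -0.14 and the lipid droplet gene Plin2 -0.02, and neither passed.

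Over all genes, the windows with the smallest p among those higher at P10 were Cttnbp2nl, Slco2b1, Tnfrsf25, Dnmbp, B3galnt1, Cxcl16, Abca1, Csrp1, Itsn1, C1qa, Spats2 and A4galt. Slco2b1, an organic anion transporter (chr7:99657804-99711340), ranged from 29.4 to 132 CPM at P1, with a median of 92.6, and from 256 to 464 at P10, with a median of 333. All P10 libraries lay above all P1 libraries, and the log2 difference was 1.96 ± 0.33 (adjusted p = 7.5e-05). Tnfrsf25, the receptor of the cytokine TL1A, ranged from 0 to 84.6 CPM at P1 and from 123 to 211 at P10, with a log2 difference of 2.42 ± 0.42 (adjusted p = 7.9e-05). A4galt and B3galnt1, which encode successive enzymes of globoside synthesis, gave 2.10 ± 0.43 and 2.11 ± 0.41, and both ages were fully apart in each. Cxcl16, a chemokine that also acts as a scavenger receptor, gave 0.80 ± 0.16, with P1 libraries between 361 and 1414 CPM and P10 libraries between 927 and 1360. It gave 0.66 (adjusted p = 0.12) without the P1 pool numbered 1 and 0.52 (adjusted p = 0.065) without P1 RZ replicate 1. Its window shares pairs with 10 others, of which 6 passed. Slco2b1, Tnfrsf25, Dnmbp, B3galnt1 and A4galt passed whichever of the 4 pools was left out. Csrp1, a LIM domain protein, gave 2.00 ± 0.39, and 0.66 (adjusted p = 0.29) without the P1 pool numbered 2.

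The windows that were lower at P10 included genes of circulating monocytes. Of 3 classical monocyte genes tested, Plac8 was lower, and of 5 genes of Ly6c-low monocytes, Ace and Treml4 were lower, with a median of -0.62 over the 5, where 3.37% of all windows passed in this direction. Plac8 ranged from 357 to 734 CPM at P1, with a median of 405, and from 108 to 272 at P10, with a median of 128. The groups did not overlap, and the log2 difference was -1.41 ± 0.24 (adjusted p = 7.5e-05), and it passed whichever of the 4 pools was left out. Ccr2, the receptor that brings classical monocytes into tissue, gave -0.00 (adjusted p = 1.0) and did not pass. Ace, which encodes angiotensin-converting enzyme, gave -2.45 ± 0.56 (adjusted p = 0.0038) on low counts, with P1 libraries at 0 to 225 CPM and P10 libraries at 0 to 63.9. Without the P1 pool numbered 1 or the P10 pool numbered 2, Ace gave -1.85 or -1.76 and did not pass (adjusted p = 0.11 and 0.13), nor did it without P1 RZ replicate 1 (-1.80, adjusted p = 0.052).

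Treml4, a receptor of the Trem family on chromosome 17, ranged from 207 to 541 CPM at P1 and from 39.1 to 193 at P10, with a log2 difference of -1.71 ± 0.30 (adjusted p = 9.7e-05). Its window overlaps those of Trem2, Trem1, Trem3 and Treml2, which were lower as well, so these genes cannot be told apart. Trem2, a lipid receptor listed with the Arg1 macrophage genes, gave -1.44 ± 0.32 (adjusted p = 0.0025), and 1 of 4 genes of that list passed, where 3.37% of all windows were lower. None of the 4 passed when scaled to all deposited pairs, and 0 of 7 with all pairs in the window. Without the P10 pool numbered 1, Treml4 and Trem2 gave -1.26 each (adjusted p = 0.073 and 0.10). Arg1 itself, which encodes arginase, ranged from 34.2 to 109 CPM at P1 and from 20.2 to 87.5 at P10 and gave -0.32 ± 0.38 (adjusted p = 0.70). The ages overlapped.

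**Figure D3:**
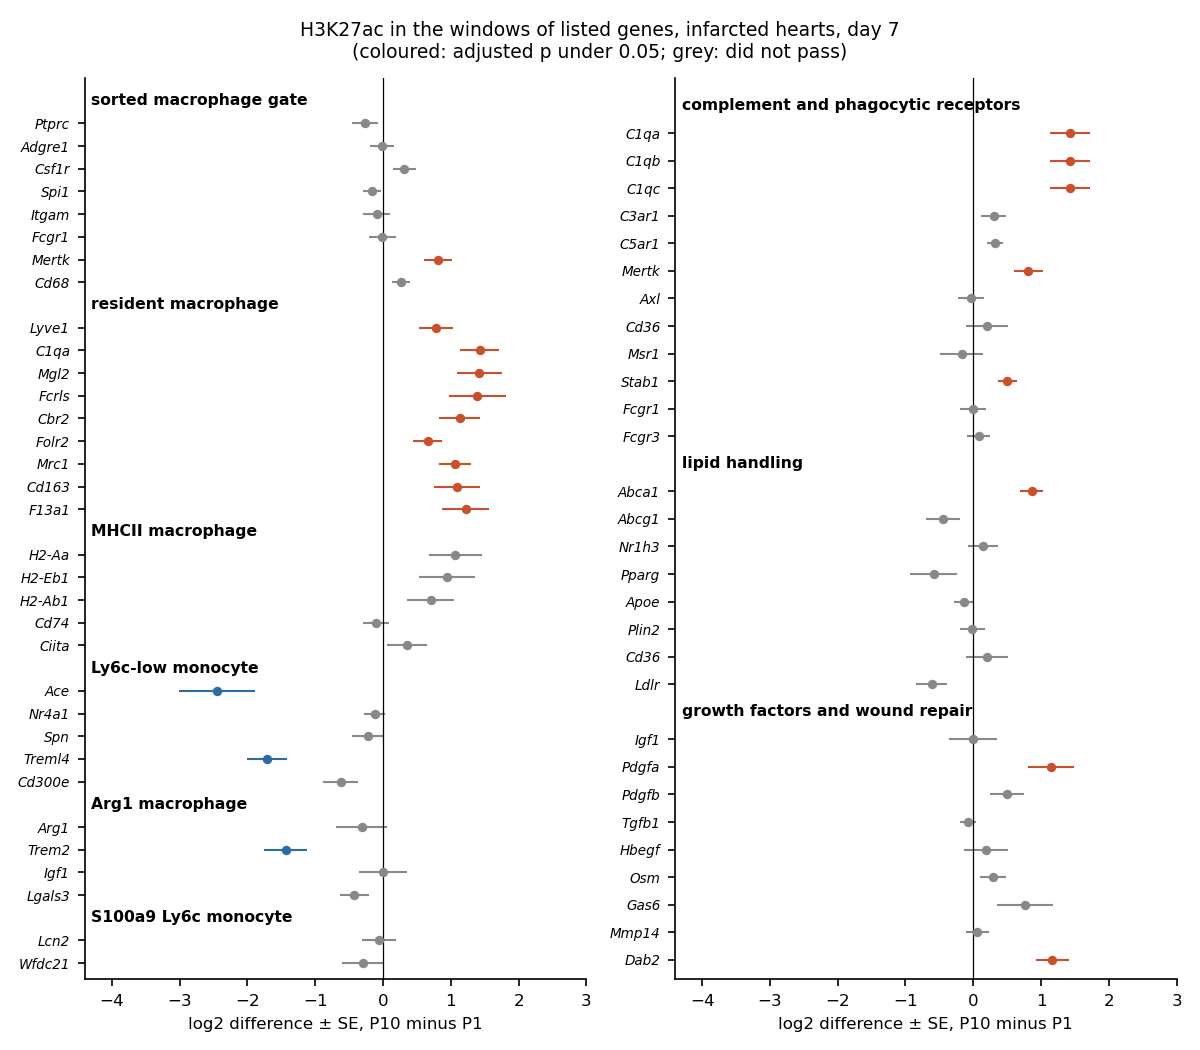
Log2 difference in H3K27ac between P10 and P1 (x axis) with its standard error, for the genes of 9 lists that had enough pairs for a test. All 9 resident macrophage genes lie to the right of 0 and are coloured as passing, whereas the 5 genes of Ly6c-low monocytes lie to the left of 0, with Ace and Treml4 passing.

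The smallest p-values belonged to windows lower at P10. F10, which encodes coagulation factor X (chr8:13037308-13056676), ranged from 236 to 517 CPM at P1, with a median of 263, and from 20.2 to 105 at P10, with a median of 33.0. These values rest on 16 to 59 read pairs per P1 library and 3 to 15 per P10 library. The ages lay far apart, with a log2 difference of -2.60 ± 0.37 (adjusted p = 7.0e-06). The neighbouring gene F7, coagulation factor VII, shares its pairs and was lower too.

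Coro2a, a coronin (chr4:46536937-46602202), had the smallest p of all windows. It ranged from 1059 to 1199 CPM at P1 and from 490 to 694 at P10, with a log2 difference of -0.98 ± 0.13 (adjusted p = 1.9e-06). Fgr, a Src family kinase of myeloid cells, ranged from 721 to 1278 CPM at P1, with a median of 1077, and from 335 to 665 at P10, with a median of 404, and gave -1.12 ± 0.17 (adjusted p = 1.8e-05). Neither gene showed any overlap between the ages. The others of the 12 with the smallest p were Ccdc88c (-1.57), Coq2 (-1.41), Trappc5 (-1.74), Plcg2 (-1.002), Plac8, Pola2 (-1.15), Dock5 (-1.57), Pygl (-1.75) and Treml4. Plcg2 encodes a phospholipase C of immune receptor signalling and Dock5 an activator of the small GTPase Rac. The Trappc5 window shares its pairs with 9 others, among them Retn, which encodes resistin, and Mcemp1, and 8 of the 9 were lower. Of the 12, only Pygl and Treml4 lost their call without a pool, in both cases the P10 pool numbered 1, where Pygl gave -1.30 (adjusted p = 0.063).

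The other gene lists had 0 or 1 window that passed, where 6.43% of all windows did, and with lists this short such counts say little about a list. In the antigen presentation list 0 of 5 passed (median 0.71), although H2-Aa, an MHC class II chain, ranged from 0 to 61.1 CPM at P1 and from 55.9 to 149 at P10 and gave 1.07 ± 0.39 (adjusted p = 0.087). Summed over all pairs and scaled to deposited pairs, these 5 genes gave 304 to 609 at P1 and 659 to 883 at P10. The ages did not overlap in these sums. None passed of 11 inflammatory cytokine and chemokine genes (median 0.13), 9 interferon response genes (median -0.01), 12 AP-1 and immediate early genes (median 0.06), 8 cell cycle genes (median 0.02) or 5 chemokine receptor genes (median -0.05). Tnf gave 0.02 and Il1b -0.23. In the list of the S100a9 Ly6c monocyte, S100a9, S100a8, Cxcr2, Cd177 and Retnlg had too few pairs, and Lcn2 (-0.06) and Wfdc21 (-0.29) did not pass. Of 17 macrophage lineage factors 1 passed, close to the share of all windows, namely Bhlhe40, a transcription factor, at -1.49 ± 0.41 (adjusted p = 0.016). It lost its call whichever of the 4 pools was left out, where its adjusted p lay between 0.055 and 0.097, and without P1 BZ replicate 1 or P10 BZ replicate 1 (adjusted p = 0.075 and 0.056), and 0 of the 17 passed when scaled to all deposited pairs. Mitf (0.64, adjusted p = 0.055) and Spi1 (-0.16) did not pass. For dendritic (4 tested), lymphoid (4), erythroid (2) and fetal growth genes (1) the count was 0, and no mast cell gene could be tested. Summed over all pairs and scaled to deposited pairs, the lymphoid genes gave 498 to 892 at P1 and 559 to 718 at P10.

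The same contrast was then made on H3K27ac regions, which do not overlap. Of 12490 regions tested, 483 (3.87%) passed, 192 higher (1.54%) and 291 lower at P10 (2.33%). On chromosome X lay 2 of the 483 and 194 of all regions tested. With scaling factors taken from the regions themselves, a choice made after seeing the data, the split was 290 higher and 233 lower. The median log2 difference was 1.55 in the higher and -1.74 in the lower regions, and the sign was the same in the 3 zones in 476 of the 483, called on the mean of the zones, and in 4871 of all regions tested. The share that passed was larger away from start sites: 336 of 5777 regions more than 1 kb from a start site passed (5.82%) and 147 of 6713 nearer ones (2.19%). These shares were not tested against each other. Without the P1 pool numbered 1 the count was 244, and without the P10 pool numbered 1 or 2 it was 193 or 180. Single libraries also moved it, to 283 without P1 RZ replicate 1, 311 without P10 IZ replicate 2 and 297 without P10 RZ replicate 1.

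The C1q region (chr4:136879501-136900000) spans C1qa, C1qb and C1qc, and gave 1.41 ± 0.26 (adjusted p = 0.00019), and 1.38 (adjusted p = 0.095) without the P1 pool numbered 1. The region over F7 and the start site of F10 (chr8:13025501-13041000) had the smallest adjusted p of all (1.1e-07), with 221 to 517 CPM at P1 and 20.2 to 96.3 at P10 and a log2 difference of -2.60 ± 0.35. A region at Ikbke, a kinase of innate immune signalling (chr1:131274501-131281000), ranged from 89.4 to 293 CPM at P1 and from 0 to 47.9 at P10 and gave -2.81 ± 0.41 (adjusted p = 1.3e-06), on 10 to 21 pairs per P1 library and 0 to 11 per P10 library, and -3.62 to -2.27 with 1 pool left out. A region with few pairs was that at Lbp, the lipopolysaccharide-binding protein (chr2:158308001-158311500), which gave -3.51 ± 0.57. At P10 its median was 0 and its highest library had 6.74 CPM, against 20.7 to 203 CPM at P1. These values rest on 1 to 9 pairs per P1 library and 0 to 3 per P10 library, the P1 pools numbered 1 and 2 averaged 25.5 and 121 CPM, and the difference was -4.78 or -2.88 without the one or the other.

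**Figure D4:**
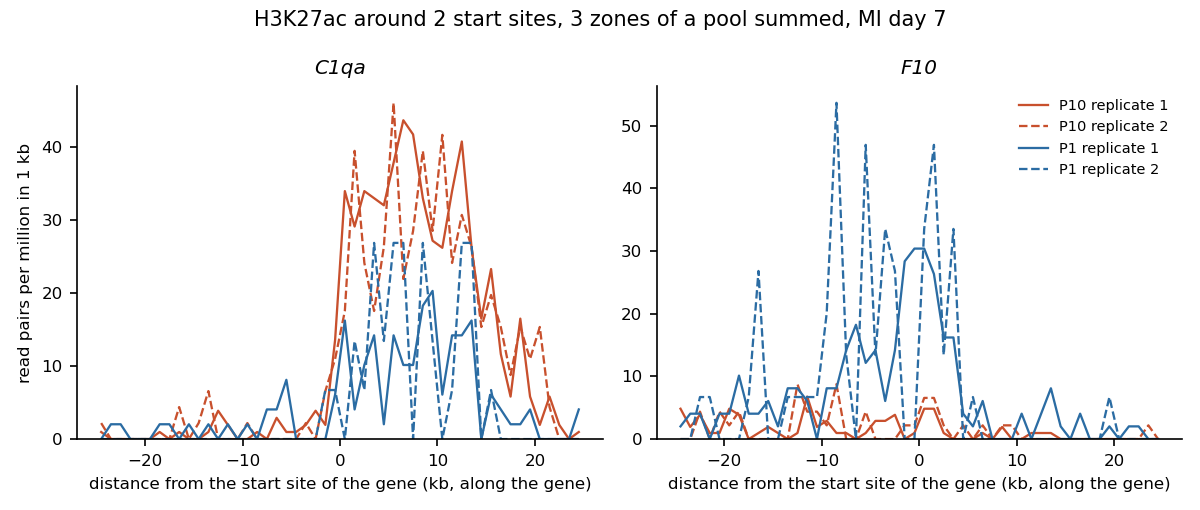
Read pairs per 1000000 in 1 kb steps (y axis) by distance from the start site, along the gene (x axis), for C1qa and F10, with the 3 zones of a pool summed and each pool a line. Around C1qa the P10 pools (orange) lie above the P1 pools (blue) over most of the cluster that follows the start site. There the P1 pool numbered 2 rests on at most 4 pairs per step. In some steps it exceeds the P10 pool numbered 2, as at 3.5 kb (26.8 against 17.5). Beside the start site of F10 the P1 pool numbered 1 lies above both P10 pools. The P1 pool numbered 2 rests on few pairs there too and has 0 in the last 2 steps before the start site.

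Sequences are shown for regions among the 8 of each direction with the smallest p, as the 300 bases around the strongest 500 bp, so that the letters under the signal can be read beside its values. They are from GRCm38, plus strand, and lie in introns or between genes. Capitals mark matches on either strand to the letters GAGGAAGT (the core bound by PU.1), TGANTCA (AP-1), TTGCNNAA (C/EBP), TGTGGT (RUNX) and TGCTGA (MAF factors, as a part of their full site). Higher at P10 were an intron of Rnf169 (chr7:99954101-99954400), a stretch behind A4galt (chr15:83223601-83223900) and an intron of Sec14l1 (chr11:117138101-117138400):
Rnf169: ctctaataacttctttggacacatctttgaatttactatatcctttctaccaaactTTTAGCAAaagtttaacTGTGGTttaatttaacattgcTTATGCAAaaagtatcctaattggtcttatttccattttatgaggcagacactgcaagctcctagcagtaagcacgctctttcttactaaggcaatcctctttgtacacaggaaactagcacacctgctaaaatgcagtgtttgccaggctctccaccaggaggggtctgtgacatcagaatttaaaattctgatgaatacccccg
A4galt: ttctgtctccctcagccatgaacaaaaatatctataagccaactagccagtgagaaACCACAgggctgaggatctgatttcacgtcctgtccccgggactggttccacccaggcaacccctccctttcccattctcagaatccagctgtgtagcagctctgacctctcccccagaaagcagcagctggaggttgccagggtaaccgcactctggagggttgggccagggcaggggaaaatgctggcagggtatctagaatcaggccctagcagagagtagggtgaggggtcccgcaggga
Sec14l1: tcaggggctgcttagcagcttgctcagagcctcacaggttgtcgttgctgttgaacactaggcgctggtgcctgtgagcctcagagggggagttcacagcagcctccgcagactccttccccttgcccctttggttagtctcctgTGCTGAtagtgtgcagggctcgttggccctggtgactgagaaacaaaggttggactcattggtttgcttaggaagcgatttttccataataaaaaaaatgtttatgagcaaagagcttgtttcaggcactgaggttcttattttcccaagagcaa

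The Rnf169 region ranged from 0 to 9.41 CPM at P1 and from 32.0 to 70.0 at P10 and passed whichever of the 4 pools was left out. The A4galt region ranged from 0 to 29.4 and from 55.9 to 114 CPM, and the Sec14l1 region from 0 to 68.5 and from 104 to 135. All 3 were free of overlap, but the latter pair had adjusted p-values of 0.073 and 0.054 without the P1 pool numbered 1. In the order given, the regions rest on only 0 to 2, 0 to 4 and 0 to 6 pairs per P1 library. The P10 libraries held 4 to 31, 7 to 45 and 13 to 70 pairs. Lower at P10 were an intron of Fgr (chr4:132976601-132976900), a stretch beside Mcemp1 and Retn (chr8:3664601-3664900) and an intron of Agpat4 (chr17:12171101-12171400):
Fgr: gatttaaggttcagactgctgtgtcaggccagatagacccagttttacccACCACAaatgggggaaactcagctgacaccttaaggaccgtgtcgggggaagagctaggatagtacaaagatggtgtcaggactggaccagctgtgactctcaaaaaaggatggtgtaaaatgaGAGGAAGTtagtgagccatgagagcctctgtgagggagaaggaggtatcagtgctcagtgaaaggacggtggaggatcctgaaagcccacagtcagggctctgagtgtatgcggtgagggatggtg
Mcemp1: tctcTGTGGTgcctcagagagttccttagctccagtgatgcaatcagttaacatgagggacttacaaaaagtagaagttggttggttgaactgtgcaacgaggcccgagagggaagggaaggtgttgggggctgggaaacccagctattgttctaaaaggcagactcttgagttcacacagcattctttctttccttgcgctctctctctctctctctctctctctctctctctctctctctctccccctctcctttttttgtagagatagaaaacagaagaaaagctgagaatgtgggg
Agpat4: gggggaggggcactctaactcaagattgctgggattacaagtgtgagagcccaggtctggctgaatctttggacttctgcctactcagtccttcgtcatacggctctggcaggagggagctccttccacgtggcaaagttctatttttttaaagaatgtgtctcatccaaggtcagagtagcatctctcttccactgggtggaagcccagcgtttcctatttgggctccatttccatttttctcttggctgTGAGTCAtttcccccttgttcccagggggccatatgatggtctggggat

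The Fgr region ranged from 378 to 608 CPM at P1 and from 82.5 to 306 at P10, that beside Mcemp1 from 163 to 427 and from 39.1 to 123, and that of Agpat4, an acyltransferase of phospholipid synthesis, from 155 to 428 and from 31.7 to 128. Each passed whichever of the 4 pools was left out and showed no overlap between the ages. Stretches not shown near Ccdc88c, Lpp, Med11 and Mxd4, among the 8 of each direction, held none of the marked letters. Stretches that overlap an annotated untranslated region were left out, namely those near Cttnbp2nl, C1qc, F10, Ikbke and Lbp, and their letters are not given here. That near Arhgap22, higher at P10, held C/EBP and RUNX letters. Letters of 12 kinds of factor were counted, and no share was tested against another. The MAF letters occurred in the 300 bases of 66 of 192 higher regions (34.4%), 73 of 291 lower regions (25.1%) and 20.1% of all regions tested. Away from start sites the shares were 35.6%, 25.9% and 25.9%. C/EBP letters occurred in 22 of 192 higher regions, 14.4% of lower and 9.14% of all regions, and away from start sites in 10.4%, 18.9% and 12.3%. RUNX letters were found in 22.4% of higher, 28.5% of lower and 17.8% of all regions. AP-1 letters were found in 12.0%, 13.4% and 8.60%, and PU.1 letters in 8.33%, 6.87% and 5.48%. Away from start sites these shares were 25.9%, 29.9% and 24.3% for RUNX, 11.1%, 16.9% and 13.4% for AP-1, and 8.15%, 6.47% and 8.01% for PU.1. The GC content of these stretches averaged 53.1% in higher, 53.9% in lower and 57.4% in all regions, and its part in these shares was not tested. A match is a description of the letters and no evidence of binding.

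In each zone taken alone fewer windows passed, 0 in IZ, 199 in BZ and 197 in RZ, and 738, 1415 and 1487 had an unadjusted p under 0.05. Over the 311 windows that were higher, the median log2 difference was 0.68 in IZ, 1.12 in BZ and 0.94 in RZ, and over the 342 that were lower it was -0.65, -1.10 and -1.03. F10 gave -1.62, -2.76 and -3.43 in IZ, BZ and RZ, Plac8 -0.61, -1.62 and -2.01, and Dab2 1.12, 1.15 and 1.23. In the test of the age difference in IZ against that in RZ, 0 windows passed in limma voom, 590 had an unadjusted p under 0.05, and limma-trend gave 0 as well. Without P1 IZ replicate 1, P1 RZ replicate 1 or the whole P1 pool numbered 1, 46, 99 or 176 windows passed.

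Sham hearts of the same ages, which share no library with the infarcted ones, showed age differences of the same kind at day 7. There 551 windows (5.42%) and 397 regions (3.18%) passed. Of the 653 windows that passed after MI, 631 had the same sign in sham hearts (7145 of all 10159 windows did), and 288 passed there too, which is 44.1% of the 653 and 52.3% of the 551. C1qa gave 1.34, Mrc1 0.77, Slco2b1 1.44, F10 -1.90, Plac8 -1.36 and Fgr -0.85 in sham hearts. The resident macrophage list had a median of 1.07 in sham hearts, with 8 of 9 genes higher, against 1.13 and 9 of 9 after MI, and 0 of the 9 passed the test of MI against sham. In the test of the age difference after MI against that in sham hearts, 0 windows and 0 regions passed in limma voom and in limma-trend, 270 windows and 440 regions had an unadjusted p under 0.05, and the smallest adjusted p was 0.50 for windows. Without P1 IZ replicate 1, P1 BZ replicate 1 or the P1 pool numbered 1, 6, 6 or 33 windows passed. Med17, a Mediator subunit, gave 1.52 after MI and -0.44 in sham hearts, and Slc2a6, a sugar transporter, -1.33 and -0.06, and neither passed this test.

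At day 3 after MI 19 windows passed between the ages (0.187%). P1 had a single pool at that time, with 1 library per zone and no replicate, so its spread was taken from the other groups. In all, 313 of the 653 windows had the same sign at day 3 as at day 7, as did 4907 of all 10159. In a test of the difference between the days, added after the day 3 values were seen, 279 windows (2.75%) and 113 regions (0.905%) passed, 108 windows more positive at day 7 and 171 more negative. This test uses the 12 libraries of day 7 again. Slco2b1 gave 1.96 at day 7 and -0.11 at day 3, and F10 -2.60 and 0.09. Plac8 gave -1.41 and 0.06, and Dock5 -1.57 and 0.54. The resident macrophage list had a median of 1.13 at day 7 and 0.32 at day 3, and 0 of its 9 genes passed the test between days, in which C1qa gave 1.16 (adjusted p = 0.10). The counts of this test depended on the processing, with 0 windows and 0 regions when scaled to all deposited pairs (541 and 891 had an unadjusted p under 0.05) and 47 windows and 4 regions in limma-trend, and with 0 windows when all pairs in the window were counted (1409 had an unadjusted p under 0.05). Without the P1 pool numbered 1, the P1 pool numbered 2 or the P10 pool numbered 1, 634, 108 or 53 windows passed. Without P1 BZ replicate 2, P10 IZ replicate 1 or P10 RZ replicate 1 the count was 184, 171 or 165. The 113 regions became 233 without the P1 pool numbered 1, 8 without the P10 pool numbered 1, 190 without P1 IZ replicate 1, and 71 or 67 without P10 IZ or RZ replicate 1.

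The share of a library's pairs in regions that fell in the 192 higher regions ran from 1.25% to 1.79% in P1 and from 2.78% to 3.49% in P10 infarcted hearts at day 7, which the choice of regions fixes. In sham hearts at day 7, whose libraries did not enter the contrast that chose them, it ran from 1.40% to 1.96% at P1 and from 2.54% to 3.22% at P10, without overlap, and at MI day 3 from 1.78% to 2.40% and from 1.43% to 2.81%, with overlap. For the 291 lower regions the shares in sham hearts were 2.78% to 3.76% at P1 and 1.503% to 2.45% at P10, again without overlap, and at MI day 3 2.17% to 3.23% and 2.00% to 3.97%. Reads of the infarcted hearts at day 7 came from 12 flow cells at P1 and 9 at P10, of which 1 was shared by both ages. On the same flow cell lay sham libraries of both ages taken at day 7, which did not enter the contrast that chose the regions. There the 3 P1 sham libraries had 2.54%, 1.51% and 1.39% of their pairs in higher regions (IZ, BZ and RZ replicate 1) and the 3 P10 sham libraries 3.05% to 3.14%, and in lower regions the P1 libraries had 2.56%, 3.90% and 3.60% and the P10 libraries 1.55% to 1.71%. The ages did not overlap, but the P1 IZ library, on 3353 pairs in regions, lay nearest to P10. Of the infarcted P1 hearts at day 7, 1 library had at least 5% of its pairs on this flow cell, and in the infarcted hearts of day 7 flow cell and age cannot be told apart.

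**Figure D5:**
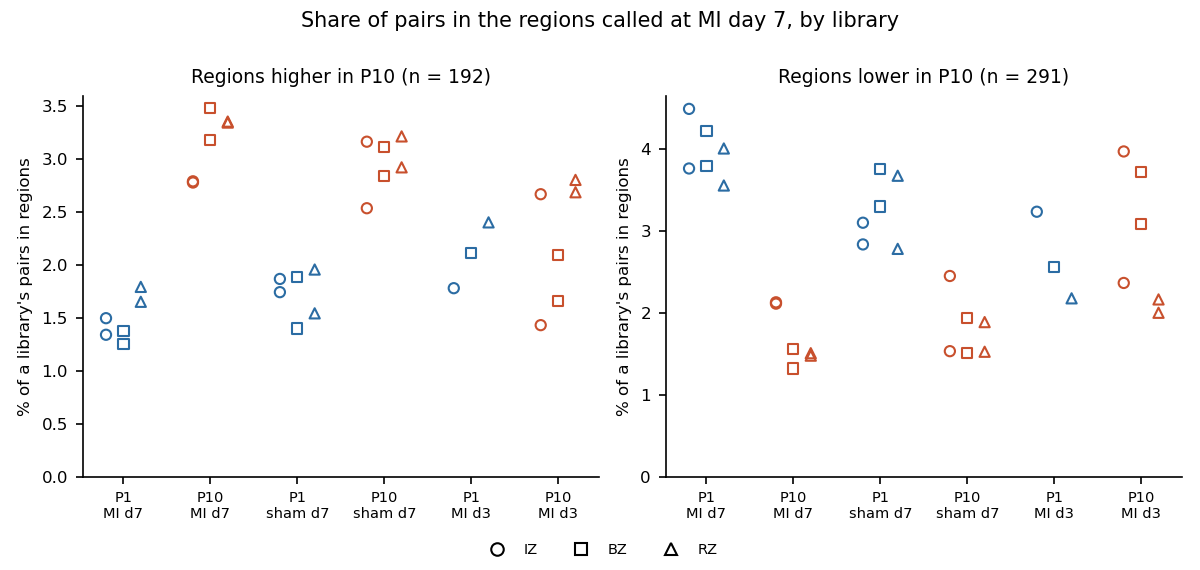
Share of a library's pairs in regions (y axis, %) that lies in the 192 regions higher and the 291 regions lower at P10, with each symbol a library of the group on the x axis. The sham hearts at day 7 are separated by age in both panels, whereas the ages overlap at MI day 3.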

How the data were processed

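Single-cell CoBATCH libraries of H3K27ac were used as deposited, 1 list of aligned reads per library, in which the submitters had already pooled the cells and left no cell barcode. According to the methods of the study, reads were assigned to barcodes by the authors' own scripts, trimmed with Cutadapt, aligned to mm10 with Bowtie2 and filtered with Samtools and Picard, and the submitters' processing notes also name MACS2 2.2.7.1 and deepTools. The score column deposited by the authors is a mapping quality, from 21 to 44, and was used only for a check. No file held counts.

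Read pairs were counted once each by read name. Regions were 500 bp bins at 4 times the mean over all libraries, joined within 1000 bp (27160 regions, median 1500 bp, 88.9 Mb). A gene window (GENCODE M21) held the gene, 50 kb upstream and 30 kb downstream. Windows with a mean of 10 pairs and regions with a mean of 3 were tested. Levels (CPM) are pairs per 1000000 pairs in regions after scaling by trimmed mean of M values (TMM), with factors from 0.941 to 1.07 computed from the windows. Sums over a list are instead all pairs in its windows per 1000000 deposited pairs, without TMM scaling. All 42 libraries entered limma voom (limma 3.58.1, R 4.3.3) with 24 groups of age, surgery, day and zone. The zones that share an arm and a replicate number were treated as 1 of 14 pools, as a random block with a correlation of 0.106 for windows and 0.0534 for regions, and Benjamini-Hochberg adjusted p of 0.05 was the threshold. The age difference was the mean over the 3 zones. Counts were made with Python 3.11.15, and the fit was tested on simulated data. The study calls its replicates biological, each a pool of several hearts, and which libraries share a pool was inferred from the replicate numbers. Group and surgery were taken from the titles.

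The 12 genes with the smallest p per direction and the same sign in the 3 zones were named, skipping overlapping windows. The same was done for 8 regions per direction. Up to 3 windows per direction were picked in the contrasts with sham hearts and of IZ with RZ, and up to 5 in that with day 3. Not all of these are named here. From each marker and pathway list, the genes that passed and up to 4 more in list order were named. Genes outside these rules (Clec10a, F7, Retn, Mcemp1, Trem1, Trem3 and Treml2, which share a window with a named gene) were named after their values were seen. The members and lists were chosen with earlier results of these data known. Alternatives covered scaling, filters, region and window definitions, the pool and replicate block, limma-trend and leaving out each library and each pool. Leaving out reads without a mate, TMM factors from regions, the contrast between days and the shared flow cell were chosen after seeing the data. P1 day 3 had 1 library per zone, from a single pool, and flow cell shares are values of single libraries with no replicate. The other 6 labelled samples were not analysed here, and some genes of the lists are not reported here.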

Additional observations from a re-analysis of the deposited data

Results flagged for a closer look

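In 5 of 92 groups of 6 libraries, which covered named windows and library measures, a single library stood apart by Dixon's criterion, each time in a named window. The criterion flags 1 in 20 groups of independent values. Zones of a pool, and windows that share pairs, are not independent, so the count cannot be read against that rate. Cttnbp2nl had 706.8 CPM in P1 RZ replicate 2, against a P1 median of 268. Pygl had 227.6 CPM in P10 IZ replicate 2 (P10 median 53.9). Trem2 had 518.3 CPM in P1 IZ replicate 2 (P1 median 215) and 175.1 CPM in P10 IZ replicate 2 (P10 median 70.6). Pdgfa had 0 CPM in P1 IZ replicate 2 (P1 median 123).

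The test of the age difference at day 7 after MI against that at day 3 passed in 279 windows and 113 regions (limma voom, adjusted p of 0.05 or less), with P1 represented by a single, unreplicated pool at day 3. These counts became 0 and 0 when scaled to all deposited pairs and 47 and 4 in limma-trend. The values that follow come from limma voom with TMM scaling. Windows named above in which it was more positive at day 7, with the log2 difference between the days, were Cttnbp2nl (1.21), Slco2b1 (2.07), Tnfrsf25 (2.84), Dnmbp (1.99), Cxcl16 (0.75), Csrp1 (1.94), Spats2 (2.59), A4galt (2.60) and Pdgfa (1.72). It was more negative in Coro2a (-0.90), F10 (-2.69), Ccdc88c (-1.75), Fgr (-0.99), Coq2 (-1.19), Trappc5 (-2.03), Plcg2 (-0.85), Plac8 (-1.47), Dock5 (-2.11), Pygl (-2.36), Treml4 (-2.21) and Trem2 (-1.86). Of the windows with the smallest p in the test between days, those more positive at day 7 were Trim47 (1.05), C1ql4 (2.69) and Aldh4a1 (1.29), a mitochondrial dehydrogenase. Those more negative were Sgms2 (-2.58), a sphingomyelin synthase, Vmn2r19 (-2.39) and Pcp2 (-2.01), whose window overlaps that of Trappc5.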

How the results depend on the processing

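Of 1713 refits of 57 named windows and regions, 1538 kept direction and call, 174 kept direction without the call, and 1 turned, Lyve1, which ranged from -0.0095 without the P1 pool numbered 1 to 1.04 without that numbered 2. The 653 windows became 58 with libraries scaled to all deposited pairs, 1022 without the pool block, 127 with all pairs in the window (0.785% of 16179 windows), 332 with the gene body and 5 kb upstream, and 238 to 675 with a library or pool left out. The 483 regions became 136 with scaling to all deposited pairs, 260 with regions at 6 times the mean, and 180 to 442 with a library or pool left out. Scaling to all deposited pairs moved the median log2 difference of all windows from 0.03 to 0.20 and of all regions from 0.00 to 0.17, and other changes are to be read against these. The cause of these differences was not tested.

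With the replicate number as a block over the 12 libraries, 1540 windows and 891 regions passed, and 0 windows in IZ against RZ. The numbers are not known to pair the ages: number 2 minus number 1 correlated between ages at 0.039 in IZ, 0.137 in BZ and 0.059 in RZ over 10159 windows, so the block was kept out of the main result.

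For MI against sham, 0 to 33 windows passed with a library or pool left out, and for IZ against RZ 0 to 176. For day 7 against day 3, the 279 windows became 0 with scaling to all deposited pairs, 547 without the pool block, 47 with limma-trend, 0 with all pairs, 134 with the gene body, and 53 to 634 with a library or pool left out. The 113 regions became 0 with scaling to all deposited pairs, 59 with a mean of 1 pair as filter, 213 without the pool block, 4 with limma-trend, 36 at 6 times the mean, 56 with repeated lines kept, 71 with TMM factors from regions, and 8 to 233 with a library or pool left out. Depth limits the P1 libraries numbered 2, in which the C1qa window held as few as 3 pairs.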

Other observations

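Marker lists of other cells gave summed levels over all pairs that overlapped between the ages. These sums are scaled to deposited pairs and are not CPM. The 5 classical monocyte genes gave 550 to 1235 at P1 and 460 to 600 at P10. In the same order, the 5 genes of Ly6c-low monocytes gave 990 to 1551 and 589 to 1078. The 7 of the S100a9 Ly6c monocyte gave 342 to 1018 and 289 to 478. The 7 genes of the Arg1 macrophage gave 530 to 995 and 387 to 588. The 5 dendritic cell genes gave 480 to 821 and 549 to 637. The 4 genes of mast cells and basophils gave 0 to 121 at P1 and 70.0 to 101 at P10, and none could be tested. The 5 erythroid genes gave 206 to 326 and 235 to 404.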
